A study of Homo sapiens with 26 samples.

Results

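The 34 genes described here are those of cholesterol and fatty acid synthesis, chosen by name from the deposited count table of 58039 genes. They comprise 19 enzymes of the sterol branch (7 of the mevalonate steps and 12 of the squalene and sterol steps), 4 regulators, 2 sterol transport genes and 9 enzymes of the fatty acid branch. All 34 passed the filter on low counts, which 17198 genes passed. RNA was sequenced in 9 groups of HCT116 cells, an established line from a human colorectal carcinoma. The groups were control HCT116 cells (n = 3), control cells given JQ1 (n = 3), CRISPR knockouts of CDK8 (CDK8KO), of CDK19 (CDK19KO) and of both genes (DKO), each as lines C1 and C2 (n = 3 per line), and line DKO-C1 given JQ1 (n = 2). CDK8 and its paralog CDK19 act within Mediator, the complex that links transcription factors to RNA polymerase II, and JQ1 is an inhibitor of the BET bromodomains that bind acetylated histones. Each genotype rests on 1 or 2 lines, JQ1 was given to 1 DKO line only, and the sources used here do not give the dose or time of JQ1 or say whether a line is 1 clone. Whether the replicates are separate cultures is not stated, so the p-values measure only the spread between these libraries.

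Cholesterol is built from acetyl-CoA through mevalonate, farnesyl diphosphate, squalene and lanosterol, and fatty acids are built from acetyl-CoA through malonyl-CoA. Both routes are driven by the SREBP transcription factors, which SREBF1 and SREBF2 encode. SCAP escorts the SREBP precursors to the Golgi, where proteases release the active part, and INSIG1 holds SCAP back in the endoplasmic reticulum when sterols are plentiful. SREBP2 acts mainly on sterol genes and SREBP1c mainly on fatty acid genes, and colorectal carcinoma cells use both routes to build membranes.

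Libraries held 17700864 to 19093094 gene counts and 193685 to 807887 counts of ERCC spike-in RNA, which the labels name for control and DKO only. The 7 colorectal epithelial markers summed to 4080 to 7678 CPM (counts scaled to library size with TMM factors). The 6 fibroblast markers summed to 13.8 to 31.5 CPM with LUM at 0, the 5 leukocyte markers to at most 0.885 CPM, the 4 endothelial markers to at most 1.04 CPM, and the 5 adipocyte and hepatocyte markers to at most 0.608 CPM with ADIPOQ at 0. HEXIM1, a gene that BET inhibitors induce, rose on JQ1 by 1.24 ± 0.0481 (log2 fold change ± SE, adjusted p = 1.51e-23) in control and 1.19 ± 0.0528 (adjusted p = 1.52e-21) in DKO-C1. MYC fell by 0.86 in control and by 0.28 in DKO-C1, and these responses differed by 0.58 (adjusted p = 2.68e-05 in edgeR). Its mean was 499 CPM in control and 275 with JQ1, and 150 in DKO-C1 and 124 with JQ1. Untreated DKO-C1 thus already lay below treated control for MYC with TMM factors. CDK8 transcript was lower than control by 0.43 in DKO-C1 and by 0.17 in CDK8KO, while CDK19 transcript was lower by 0.32 in CDK19KO but higher by 0.28 in DKO-C1. The edited sites are not in the labels, so transcript levels do not check the knockouts, and every group is named as labelled. In bulk RNA, fewer cells of a type and less RNA per cell cannot be told apart.

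Promoter sequence was available in RefSeq (GRCh38.p14) for 30 of the 34 genes, as 40 windows from 250 bases before to 50 after a start. ACAT2, FDFT1, SQLE and FASN had no window. Motifs were sought on both strands as exact letters (N is any base), so variant forms of an element would be missed. The letters CCAAT, the core bound by NF-Y, were in 26 of 40 member windows (65.0%) and in 34.6% of all 35116 windows. GGGCGG, an Sp1 core, was in 34 of 40 (85.0%) against 45.0%, and CACGTG, the E-box, in 6 of 40 against 7.26%. Some genes have overlapping windows, which can count a site more than once. Counted by gene, CCAAT was in 22 of 30 members against 39.7% of all genes. GGGCGG was in 27 against 48.3%, and CACGTG in 5 against 8.77%. The sterol regulatory element core TCACNCCAC was in 1 of 40 against 1.13% of all windows, and that window was SREBF2's. The shares with CCAAT were 71.4% of 21 sterol branch windows and 61.5% of 13 fatty acid branch windows. A match is a description of letters and not evidence of binding. Shown 5′ to 3′ on the gene's strand, up to the first annotated base of the gene, are MVD (chr16:88663162-88663341, minus strand), the member whose JQ1 response differed most, MSMO1 (chr4:165327419-165327622, plus) as a sterol step with several such motifs, SCD (chr10:100346983-100347123, plus) for the fatty acid branch, SREBF2 (chr22:41832855-41833078, plus) for its sterol element, and TM7SF2 (chr11:65111622-65111844, plus), the member with the largest JQ1 rise. Capitals mark CCAAT or its complement ATTGG and, in SREBF2, the sterol element.
MVD: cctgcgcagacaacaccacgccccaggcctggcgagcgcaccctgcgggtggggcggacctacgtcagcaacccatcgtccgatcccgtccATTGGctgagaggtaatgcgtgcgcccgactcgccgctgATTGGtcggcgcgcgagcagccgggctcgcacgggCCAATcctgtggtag
MSMO1: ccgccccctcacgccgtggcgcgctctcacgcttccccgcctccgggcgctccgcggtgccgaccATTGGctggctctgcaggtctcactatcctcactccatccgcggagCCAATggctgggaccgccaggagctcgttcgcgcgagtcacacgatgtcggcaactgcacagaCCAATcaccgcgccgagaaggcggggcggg
SCD: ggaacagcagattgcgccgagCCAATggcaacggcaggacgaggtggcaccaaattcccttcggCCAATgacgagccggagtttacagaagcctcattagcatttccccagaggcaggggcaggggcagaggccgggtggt
SREBF2: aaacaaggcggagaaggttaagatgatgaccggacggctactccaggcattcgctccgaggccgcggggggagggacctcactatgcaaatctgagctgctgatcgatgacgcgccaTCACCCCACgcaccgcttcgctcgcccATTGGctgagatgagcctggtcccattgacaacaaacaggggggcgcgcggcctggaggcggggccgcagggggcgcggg
TM7SF2: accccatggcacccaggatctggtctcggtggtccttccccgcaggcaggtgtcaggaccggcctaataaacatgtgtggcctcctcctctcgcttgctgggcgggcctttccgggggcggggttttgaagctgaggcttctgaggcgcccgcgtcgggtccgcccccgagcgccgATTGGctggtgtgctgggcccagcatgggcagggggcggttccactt
MVD and MSMO1 held 3 CCAAT motifs each in the stretch shown, SCD held 2, and SREBF2 and TM7SF2 held 1. The sterol element of SREBF2 began 133 bases before the RefSeq start, and 26 bases before that start lie in the annotated gene and are not shown.

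JQ1 was compared with no JQ1 in control and in DKO-C1, to ask whether loss of both kinases changes the response to BET inhibition. In control cells, 8 members rose and 16 fell, while 26.9% of all genes were called higher and 29.0% lower; with factors from ERCC counts in place of TMM the members' counts were 1 and 24. In DKO-C1, 19 rose and 3 fell, against 24.9% and 25.4% of all genes, and with ERCC factors 4 rose and 4 fell. With ERCC factors the median JQ1 response of all genes was itself below 0 in control and in DKO-C1. The shares of all genes called are not given for these ERCC counts, so the counts do not set the members apart. The test of the difference between the responses called 22 of 34 members, each with the higher response in DKO-C1, and 0 lower (0 also with DESeq2 and limma voom, and 1, FADS2, at an unadjusted p under 0.05 in edgeR). Over all genes 3.86% were called higher and 4.69% lower in that test. The median difference was 0.41 on the log2 scale over the members and 0.03 over all genes. With ERCC factors the difference was called for 8 members, also all higher (ACAT2, HMGCS1, MVD, IDI1, MSMO1, DHCR7, SCD and ELOVL6), and 137 genes were called in all (79 higher, 58 lower, against 663 and 807 with TMM). Fitting only the libraries compared gave 460 genes higher and 1259 lower, and 19 members higher and 1 lower. A call is an adjusted p (Benjamini-Hochberg, over all 17198 genes) under 0.05 in edgeR's quasi-likelihood test. Without DKO-C1 JQ1 replicate 1 the difference was called for 17 members and 918 genes.

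**Figure D1:**
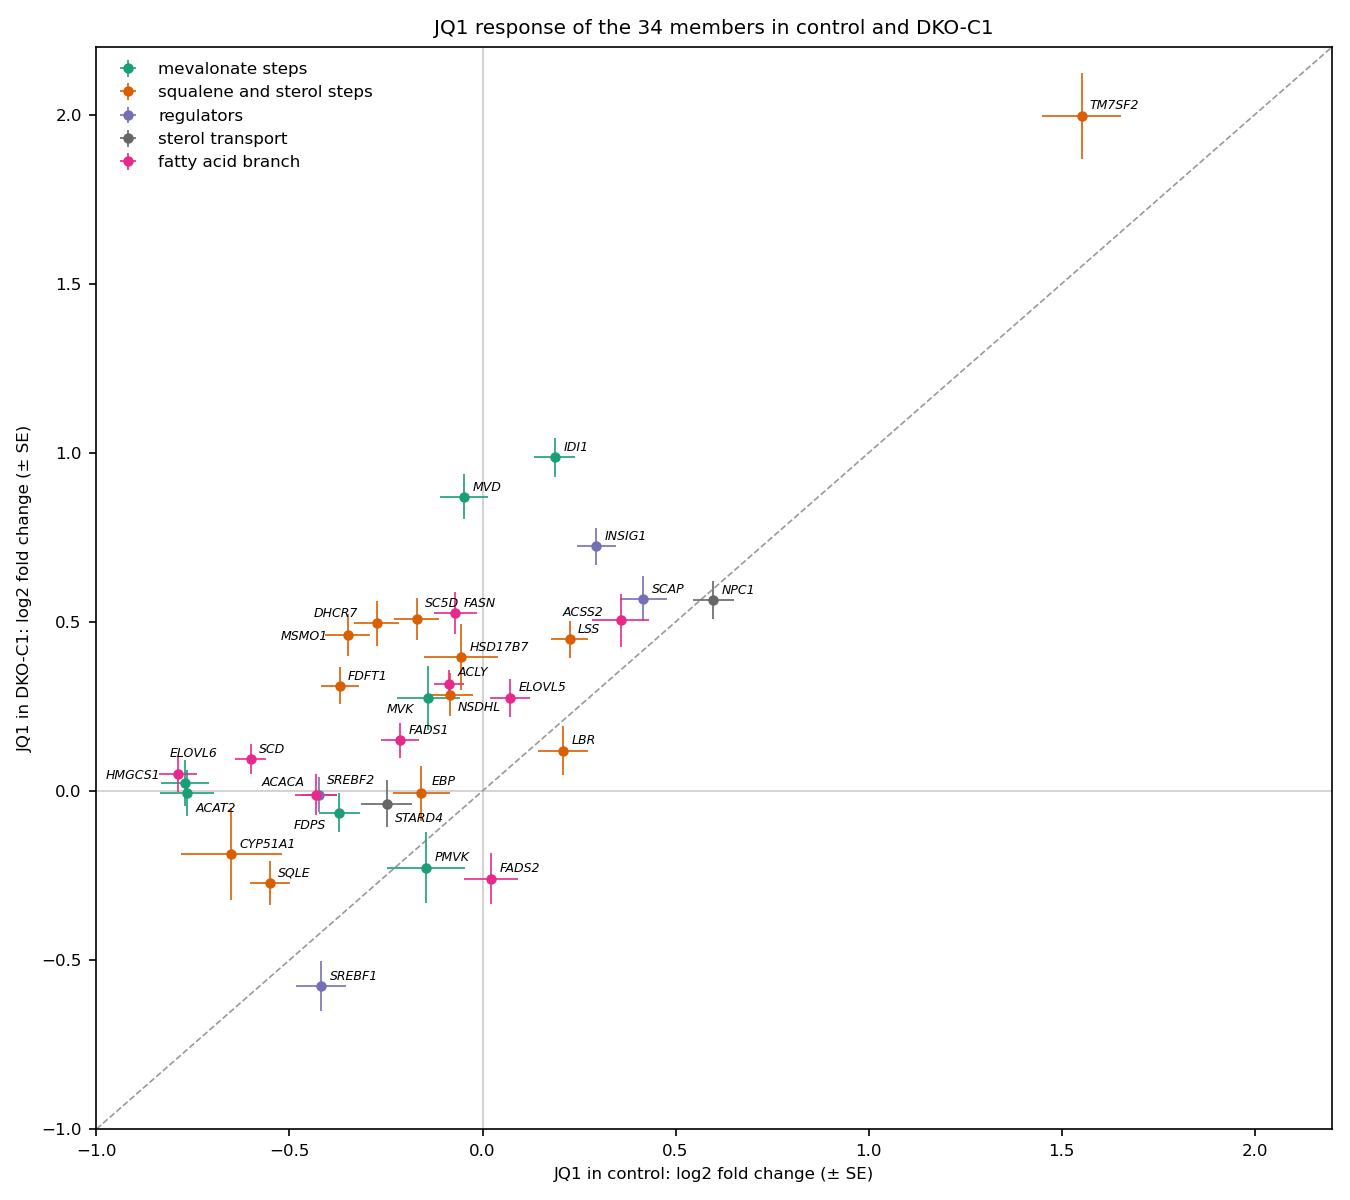
Log2 fold change on JQ1 in control (x axis) and in DKO-C1 (y axis) for the 34 genes, with standard errors and colours by role; the dashed line marks equal responses. Points above the line responded more positively in DKO-C1, and TM7SF2 lies at 1.55 and 2.00.

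The members fell into several patterns by these 3 tests with TMM factors. With ERCC factors most of the members called higher on JQ1 in DKO-C1 lost that call. This held for most of the sterol enzymes and for all of the fatty acid enzymes, FADS1, ACLY and FASN among them. Most of the rises listed below for DKO-C1 therefore did not hold with those factors. FDFT1, MSMO1, SC5D, DHCR7 and FADS1 fell in control and rose in DKO-C1; with ERCC factors FADS1 was at -0.12 in DKO-C1. ACAT2, HMGCS1, FDPS, SREBF2, ACACA, SCD and ELOVL6 fell in control and were not called in DKO-C1. MVK, MVD, NSDHL, HSD17B7, ACLY and FASN were not called in control and rose in DKO-C1. IDI1, LSS and INSIG1 rose in both, more in DKO-C1, although with ERCC factors all 3 lay below 0 in control (-0.18, -0.14 and -0.070). SQLE fell in both, less in DKO-C1. The remaining 12 members were not called in the test of the difference, which does not show that their responses were equal.

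Among the mevalonate steps, 6 of 7 were called in the difference (all higher, against 3.86% of all genes), with a median of 0.76. MVD, the mevalonate diphosphate decarboxylase, was at 70.9, 75.3 and 73.1 CPM in control, 75.6, 68.8 and 67.8 with JQ1, 63.0, 66.9 and 73.7 in DKO-C1, and 117 and 131 in DKO-C1 with JQ1. With TMM factors only the DKO-C1 libraries with JQ1 stood apart from the other 3 groups (against treated control they were at -0.11 with ERCC factors), and the responses differed by 0.92 ± 0.0913 (adjusted p = 8.94e-10 in edgeR). IDI1, which isomerises isopentenyl diphosphate, was at 101, 98.1 and 97.5 CPM in control, 107, 114 and 116 with JQ1, 82.1, 79.1 and 76.8 in DKO-C1, and 165 and 149.5 in DKO-C1 with JQ1. With TMM factors it was lowest in untreated DKO-C1 and highest in the same line with JQ1, and no groups overlapped (difference 0.80 ± 0.0786, adjusted p = 6.58e-10 in edgeR).

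HMGCS1, the HMG-CoA synthase, was at 96.7, 94.7 and 92.9 CPM in control, 52.8, 58.6 and 55.1 with JQ1, 79.1, 78.3 and 74.6 in DKO-C1, and 81.9 and 75.3 in DKO-C1 with JQ1. The control libraries with JQ1 were the lowest with TMM factors, and the DKO-C1 groups overlapped each other (difference 0.79 ± 0.0921, adjusted p = 3.04e-08 in edgeR). ACAT2, the cytosolic acetoacetyl-CoA thiolase, was at 34.2, 33.2 and 34.9 CPM in control, 18.6, 21.4 and 20.3 with JQ1, 48.2, 47.2 and 45.0 in DKO-C1, and 50.2 and 43.0 in DKO-C1 with JQ1. It fell on JQ1 by 0.77 in control, the DKO-C1 groups overlapped, and the responses differed by 0.76 ± 0.0966 (adjusted p = 2.46e-07 in edgeR). Exons of genes on the opposite strand cover 52.3% of ACAT2's exons, and as the strand setting of the counts is not given, its reads cannot be told from theirs. MVK (0.42) and FDPS (0.31) were called as well, though MVK lost its call without each of 6 libraries in turn (lowest difference 0.35, without DKO-C1 JQ1 replicate 1) and FDPS without DKO-C1 JQ1 replicate 1 (adjusted p = 0.0503). PMVK was not called (-0.08 ± 0.146).

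Of the 12 squalene and sterol steps, 8 were called in the difference (all higher, against 3.86% of all genes), with a median of 0.45. MSMO1, the sterol C4-methyl oxidase, was at 60.3, 67.8 and 64.2 CPM in control, 48.2, 49.4 and 53.3 with JQ1, 58.5, 54.5 and 57.4 in DKO-C1, and 79.9 and 76.4 in DKO-C1 with JQ1. DHCR7, which makes cholesterol from its last precursor in one arm of the pathway, was at 141, 145 and 143 CPM in control, 123, 114 and 117 with JQ1, 98.8, 99.1 and 106 in DKO-C1, and 141 and 144 in DKO-C1 with JQ1. Both genes moved down in control and up in DKO-C1 without overlap with TMM factors, and DHCR7 in treated DKO-C1 overlapped untreated control. The differences were 0.81 ± 0.0853 for MSMO1 (adjusted p = 3.49e-09 in edgeR) and 0.77 ± 0.0884 for DHCR7 (2.53e-08).

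FDFT1, the squalene synthase, was at 201, 195 and 202 CPM in control, 162, 149 and 151 with JQ1, 150.3, 151 and 161 in DKO-C1, and 192 and 189 in DKO-C1 with JQ1. SC5D, a sterol desaturase, was at 53.4, 54.9 and 52.9 CPM in control, 48.4, 48.4 and 46.4 with JQ1, 58.8, 60.1 and 55.1 in DKO-C1, and 85.2 and 79.8 in DKO-C1 with JQ1. With TMM factors SC5D was above all other groups in treated DKO-C1 (against treated control it was at -0.12 with ERCC factors), and FDFT1 there was below untreated control. The responses differed by 0.68 ± 0.0736 for FDFT1 (adjusted p = 6e-09 in edgeR) and 0.68 ± 0.0849 for SC5D (1.7e-07). The fall of SC5D in control was no longer called without control JQ1 replicate 3 (adjusted p = 0.0524).

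NSDHL (0.37), HSD17B7 (0.45), SQLE (0.28) and LSS (0.22) completed the called sterol steps. Of these, HSD17B7, SQLE and LSS lost the call without each of 7, 3 and 8 libraries in turn, among them DKO-C1 JQ1 replicate 1 (adjusted p = 0.177, 0.237 and 0.0778). TM7SF2, a sterol C14-reductase, had the largest JQ1 response of all members, from 15.7, 13.9 and 16.9 CPM to 49.1, 43.4 and 43.9 in control, and from 8.26, 6.78 and 7.84 to 27.3 and 33.6 in DKO-C1. It rose by 1.55 ± 0.102 and 2.00 ± 0.128, and the difference of 0.45 ± 0.167 was not called (adjusted p = 0.096 in edgeR). LBR, the other C14-reductase, rose in control by 0.21, a call lost without control JQ1 replicate 3 (adjusted p = 0.0651), and with ERCC factors it was at -0.16. CYP51A1 was the lowest member per exon length (1.82 CPM per kb in control), and 79.4% of its exon bases overlap other genes of the same strand, so its values are uncertain (difference 0.46 ± 0.190, not called). EBP, the sterol isomerase, was not called in either line, but without control JQ1 replicate 1 it was called lower in control (-0.27, adjusted p = 0.00273). Other calls gained without 1 library were ACLY in control (-0.12, without control replicate 1) and, in DKO-C1, PMVK (-0.28, without DKO-C1 replicate 1) and LBR (0.22, without DKO-C1 JQ1 replicate a).

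**Figure D2:**
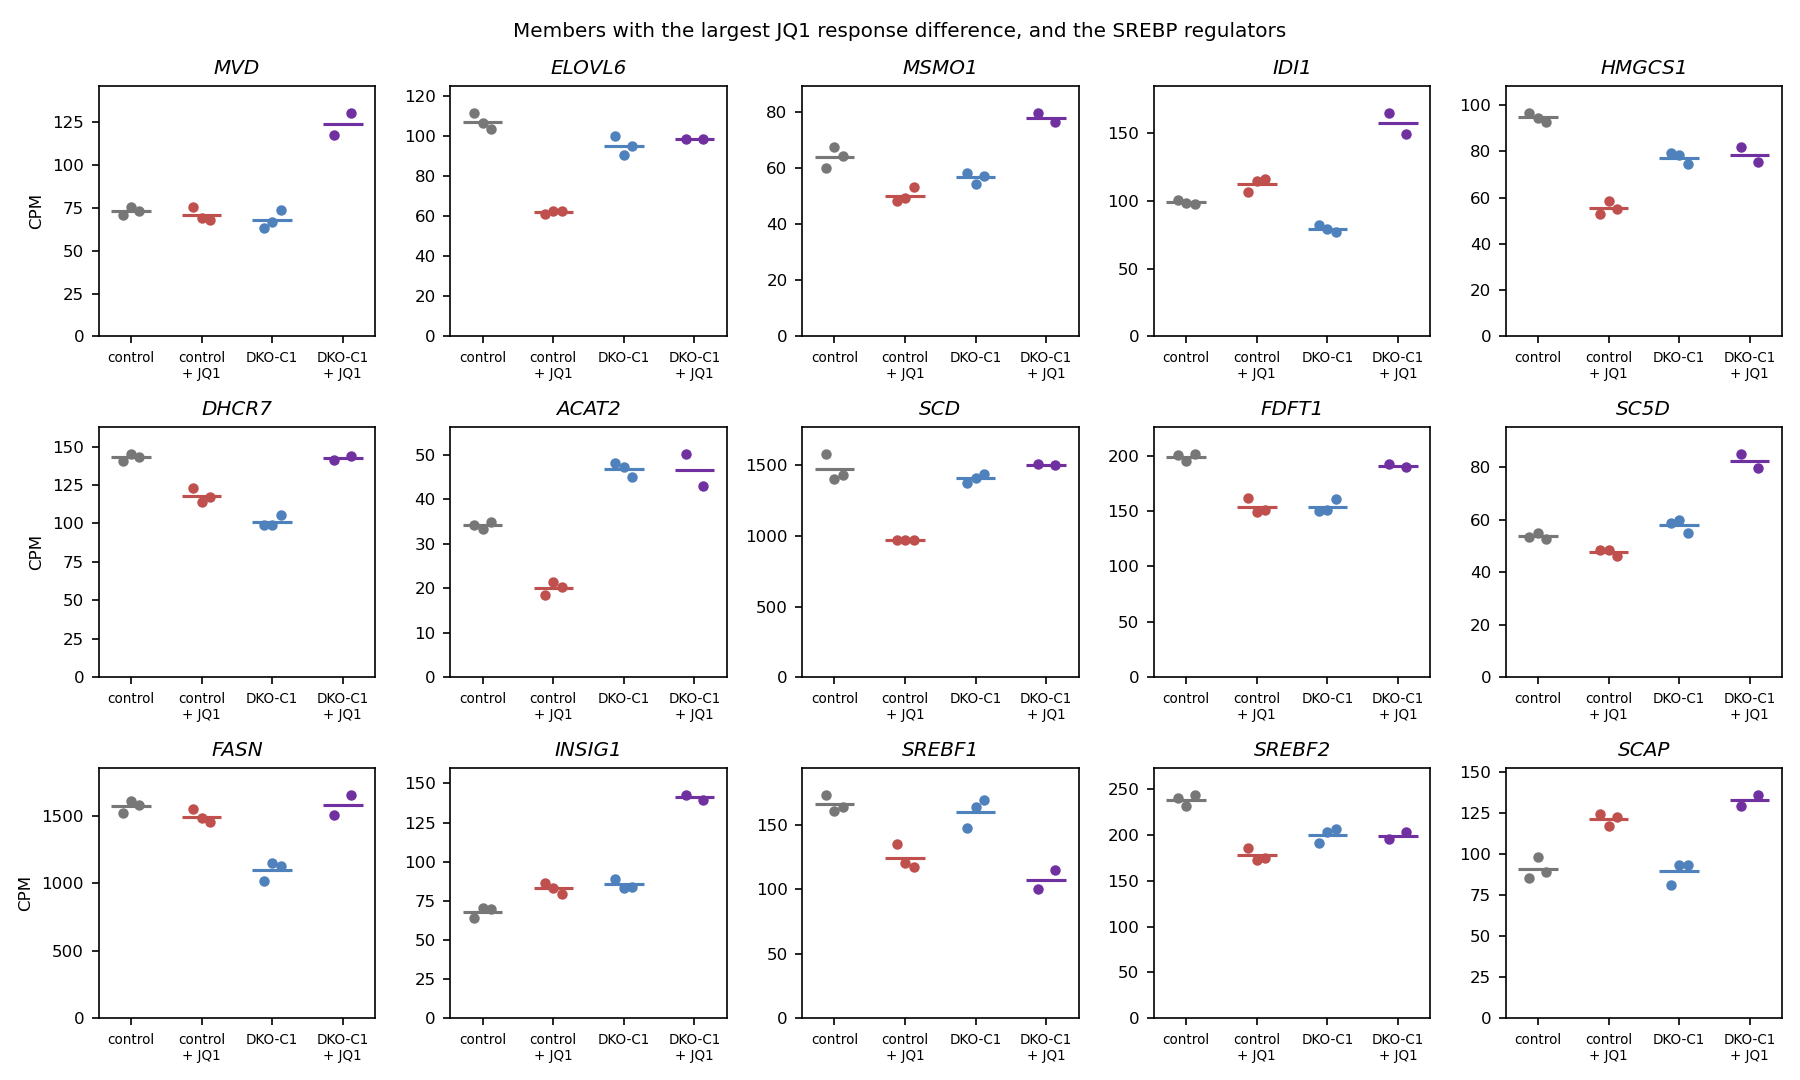
CPM with TMM factors (y axis, from 0) in each library of 4 groups for the 11 members called in the difference at 0.5 or more and for the 4 regulators; points are libraries and lines are group means. The control libraries with JQ1 are the lowest group for ELOVL6, HMGCS1, ACAT2, SCD, MSMO1, SC5D and SREBF2. The DKO-C1 libraries with JQ1 are the highest for MVD, MSMO1, IDI1, SC5D, INSIG1 and SCAP. With ERCC factors 0 of 34 members were called higher in treated DKO-C1 than in treated control.

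In the fatty acid branch, 6 of 9 were called in the difference (all higher, against 3.86% of all genes), with a median of 0.40. ELOVL6, which elongates palmitate, was at 112, 107 and 104 CPM in control, 60.9, 62.9 and 62.5 with JQ1, 99.9, 90.6 and 95.2 in DKO-C1, and 98.7 and 98.4 in DKO-C1 with JQ1. SCD, the stearoyl-CoA desaturase, was at 1578, 1402 and 1429 CPM in control, 967, 971 and 970.0 with JQ1, 1373, 1409 and 1436 in DKO-C1, and 1504 and 1499 in DKO-C1 with JQ1. For both genes the control libraries with JQ1 lay below every other library of the 4 groups with TMM factors. The differences were 0.84 ± 0.0724 for ELOVL6 (adjusted p = 2.46e-11 in edgeR) and 0.70 ± 0.0604 for SCD (2.9e-11).

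FASN, the fatty acid synthase, followed another course, with 1518, 1607 and 1578 CPM in control, 1545, 1485 and 1449 with JQ1, 1019, 1147 and 1126 in DKO-C1, and 1507 and 1654 in DKO-C1 with JQ1. With TMM factors FASN was lowest, among these groups, in untreated DKO-C1. Untreated DKO-C2 was also below control (-0.44, adjusted p = 9.5e-09 in edgeR). The JQ1 responses of control and DKO-C1 differed by 0.60 ± 0.0826 (adjusted p = 1.42e-06 in edgeR). ACACA, the acetyl-CoA carboxylase of the cytosol (0.42), ACLY, the ATP citrate lyase (0.40), and FADS1, a desaturase of polyunsaturated fatty acids (0.36), were called too. ACSS2, ELOVL5 and FADS2 were not, at 0.15, 0.20 and -0.28. ACSS2 rose in both lines (0.36 in control, -0.010 with ERCC factors, and 0.50 in DKO-C1), and FADS2 fell in DKO-C1 alone by 0.26, a call lost without DKO-C1 JQ1 replicate 1 (adjusted p = 0.0805). FADS1 in DKO-C1 likewise lost its call without that library (adjusted p = 0.0655) or DKO-C1 replicate 1 (0.0648), and MVK in DKO-C1 without either (0.134 and 0.0807). The difference for FADS2 was called without control JQ1 replicate 2 (-0.34, adjusted p = 0.0379).

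In the difference, 14 of 19 enzymes of the sterol branch and 6 of 9 of the fatty acid branch were called (6 and 2 with ERCC factors), with medians of 0.45 and 0.40 and ranges of -0.09 to 0.92 and -0.28 to 0.84. Of all genes, 3.86% were called higher in the difference with TMM factors. In control, 4 sterol enzymes rose and 9 fell (1 and 15 with ERCC factors). Of the fatty acid enzymes 1 rose and 4 fell there (0 and 6). Over all genes, 26.9% were called higher and 29.0% lower in control with TMM factors. In DKO-C1, 11 sterol enzymes rose and 1 fell (3 and 2 with ERCC factors). Of the fatty acid enzymes 5 rose and 1 fell there (0 and 1). Over all genes, 24.9% were called higher and 25.4% lower in DKO-C1 with TMM factors. The shares of all genes with ERCC factors are not given here. No test between the branches was made, since the genes of a branch are not replicates.

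**Figure D3:**
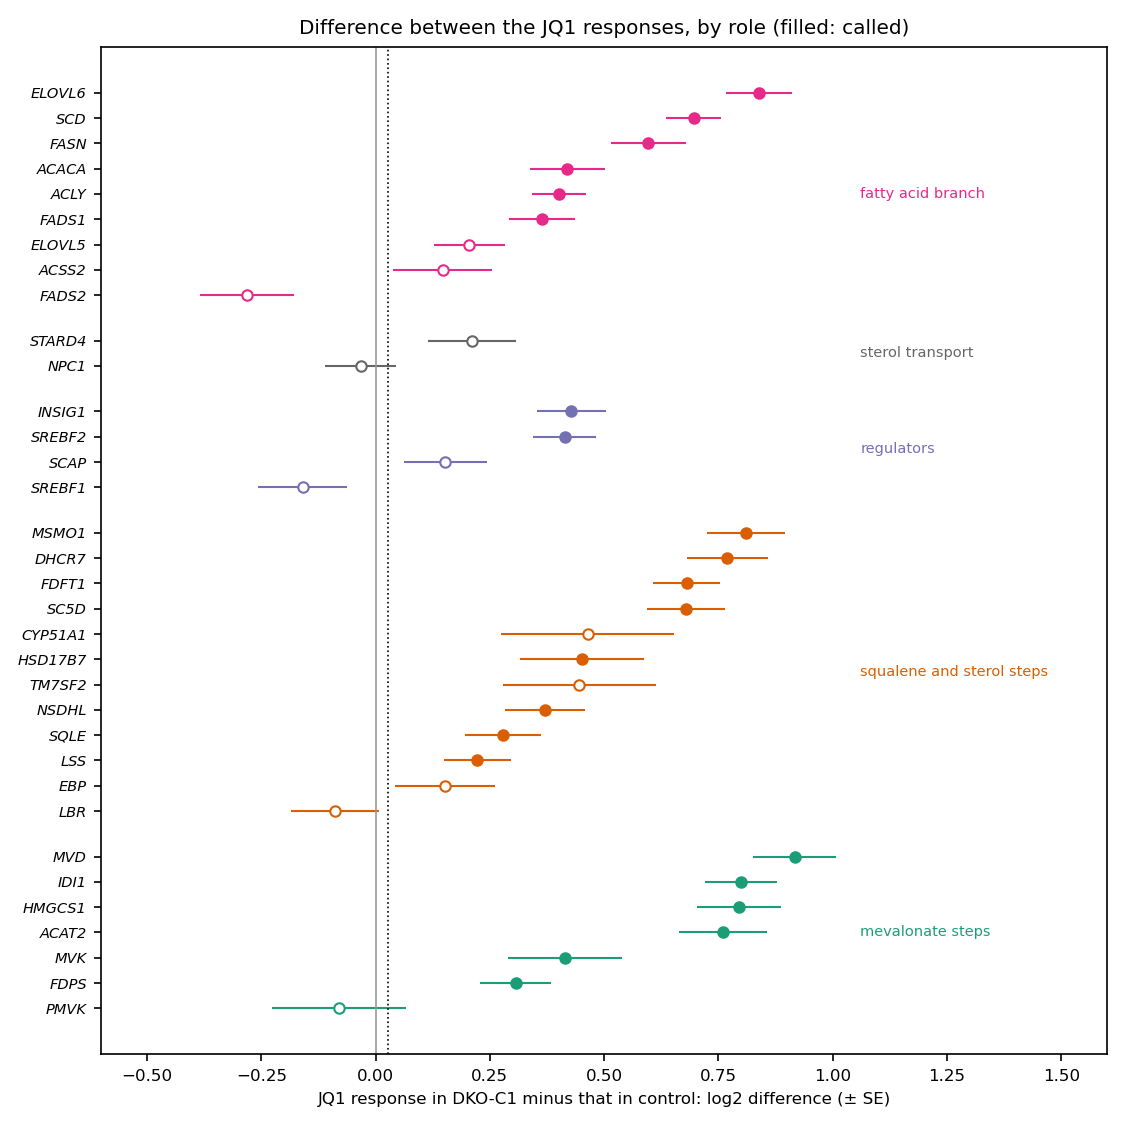
JQ1 response in DKO-C1 minus that in control (x axis, log2, ± SE) for each gene, grouped by role; filled points were called and the dotted line is the median of all genes, 0.03. The 22 filled points all lie above 0, from 0.22 (LSS) to 0.92 (MVD).

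The 4 regulators did not move as one. INSIG1, itself an SREBP target, was at 63.8, 70.2 and 69.5 CPM in control, 86.7, 83.4 and 79.6 with JQ1, 89.2, 83.1 and 84.1 in DKO-C1, and 143 and 139 in DKO-C1 with JQ1. Its responses differed by 0.43 ± 0.0751 (adjusted p = 8.13e-05 in edgeR), and with TMM factors treated DKO-C1 stood above all other groups. With ERCC factors INSIG1 was at -0.15 in treated DKO-C1 against treated control. SREBF2 was at 239.9, 232 and 243 CPM in control, 185, 173 and 175 with JQ1, 191, 203 and 206 in DKO-C1, and 195 and 203 in DKO-C1 with JQ1. It fell in control by 0.42 and was not called in DKO-C1, where the groups overlapped (difference 0.41 ± 0.0691, adjusted p = 3.69e-05 in edgeR).

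SREBF1 was at 173, 160.4 and 163 CPM in control, 135, 120.0 and 117 with JQ1, 147, 164 and 169 in DKO-C1, and 99.9 and 115 in DKO-C1 with JQ1. It fell in both lines, by 0.42 and 0.58. SCAP was at 85.1, 98.3 and 89.0 CPM in control, 124, 117 and 122 with JQ1, 81.4, 93.3 and 93.4 in DKO-C1, and 129 and 136 in DKO-C1 with JQ1. It rose in both, by 0.42 and 0.57. The differences of -0.16 ± 0.0972 for SREBF1 (adjusted p = 0.378 in edgeR) and 0.15 ± 0.0905 for SCAP (0.362) were not called. The sterol transport genes were not called in the difference either. NPC1, which exports cholesterol from lysosomes, rose by 0.60 and 0.56, and STARD4, a cytosolic sterol carrier, fell in control by 0.25.

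Of 83 other lipid genes listed by function, 78 were tested, and 8 were called higher and 3 lower in the difference, with a median of 0.05. Over all genes 3.86% and 4.69% were called, and 3 of 78 is near that share. Lists this short would hold few calls at those shares: in edgeR 0 of 17 fatty acid oxidation genes, 0 of 6 LXR receptors and targets and 0 of 6 SREBP processing genes were called; at an unadjusted p under 0.05 these counts were 1 (ACADVL), 0 and 1 (MBTPS1). TMEM97, a sterol-responsive membrane protein, fell in control by 0.72 and was at -0.09 in DKO-C1 (difference 0.63 ± 0.0747, adjusted p = 5.49e-08 in edgeR). ACACB, the mitochondrial acetyl-CoA carboxylase (0.66), GPAM, a glycerol-3-phosphate acyltransferase (0.51), LIPA, the lysosomal acid lipase (0.40), MID1IP1, an activator of acetyl-CoA carboxylase (0.40), and ERG28, a scaffold of the sterol C4-demethylation enzymes (0.39), were also higher. HACD1, an acyl-CoA dehydratase (-0.69), and PCYT1A, of phosphatidylcholine synthesis (-0.42), were lower.

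Without JQ1, DKO-C1 was compared with control. 9 members were higher and 13 lower, against 27.0% and 28.9% of all genes; with ERCC factors all 34 were lower, as the median of all genes moved from -0.02 to -1.03. SQLE, the squalene epoxidase and a rate-controlling step of the sterol branch, was lower by 1.47 ± 0.0537 (36.1% of control, adjusted p = 2.43e-25 in edgeR). TM7SF2 was lower by 1.02, FASN by 0.51 and DHCR7 by 0.50. NPC1 (0.52), ACAT2 (0.45), ELOVL5 (0.44) and INSIG1 (0.33) were higher with TMM factors and lower with ERCC factors (-0.50, -0.56, -0.57 and -0.68). Over both DKO lines, 8 members were higher and 14 lower (29.4% and 32.1% of all genes; 0 and 34 with ERCC factors). DKO-C1 and DKO-C2 differed in 4 members (SQLE, TM7SF2, STARD4 and ELOVL6), against 9.38% of all genes.

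With JQ1 in both, DKO-C1 was higher than control in 26 members and lower in 3, against 24.2% and 22.4% of all genes; with ERCC factors 0 were higher and 23 lower, as the median of all genes moved from 0.02 to -0.90. ACAT2 stood highest relative to control, at 1.21 ± 0.0734, followed by MVD (0.81) and SC5D (0.79). The 3 lower members were SQLE (-1.19), TM7SF2 (-0.58) and SREBF1 (-0.21), and the call of SREBF1 was lost without DKO-C1 JQ1 replicate 1 (adjusted p = 0.336) or control JQ1 replicate 1 (0.126). This comparison and the JQ1 responses share libraries.

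In CDK8KO, 14 members were higher and 5 lower than control, against 19.5% and 21.0% of all genes, and in CDK19KO 17 were higher and 4 lower, against 21.0% and 22.0%; with ERCC factors all 34 were lower in each. Leaving out each library in turn gave 13 to 18 members and 5806 to 6655 genes called for CDK8KO. For CDK19KO it gave 19 to 24 members and 6219 to 7339 genes. The lower call of SQLE in CDK8KO was lost without control replicate 1 or control replicate 2. SREBF1 was higher by 0.49 ± 0.0555 in CDK8KO and by 0.53 ± 0.0555 in CDK19KO, and INSIG1 by 0.40 and 0.39, all 4 of them lower with ERCC factors (-0.73, -1.13, -0.82 and -1.26). SREBF1 was at 219 to 226 CPM in CDK8KO-C1, 240.3 to 243 in CDK8KO-C2, 257 to 279 in CDK19KO-C1 and 203 to 221 in CDK19KO-C2, each above the control range of 160.4 to 173. The labels name no spike-in for the single knockouts.

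The lines of one knockout differed. CDK8KO-C1 had 11 members higher and 8 lower than control (19.7% and 19.4% of all genes), and CDK8KO-C2 had 16 and 2 (16.7% and 17.2%). CDK19KO-C1 had 24 and 4 (22.1% and 23.9%), and CDK19KO-C2 had 6 and 8 (21.9% and 20.6%). C1 and C2 differed directly in 13 members for CDK8KO, 2 of them higher in C1, against 21.2% of all genes. They differed in 28 for CDK19KO, 24 of them higher in C1, against 47.9% of all genes. FDFT1, TM7SF2, SREBF2, SCD and ELOVL6 were called in opposite directions in the CDK19KO lines, and MVK and SQLE in the CDK8KO lines.

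SQLE shows the size of this. It was at 139.6, 139.8 and 136 CPM in control, 84.7, 86.1 and 88.0 in CDK8KO-C1, 183, 192 and 188 in CDK8KO-C2, 81.5, 81.2 and 76.2 in CDK19KO-C1, and 40.5, 38.2 and 39.9 in CDK19KO-C2. The DKO lines were at 50.2, 49.6 and 49.9 in C1 and 74.3, 61.7 and 64.5 in C2. All lines but CDK8KO-C2 lay below control with TMM factors, and no knockout line overlapped the control range. Line and knockout cannot be told apart where the lines disagree.

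**Figure D4:**
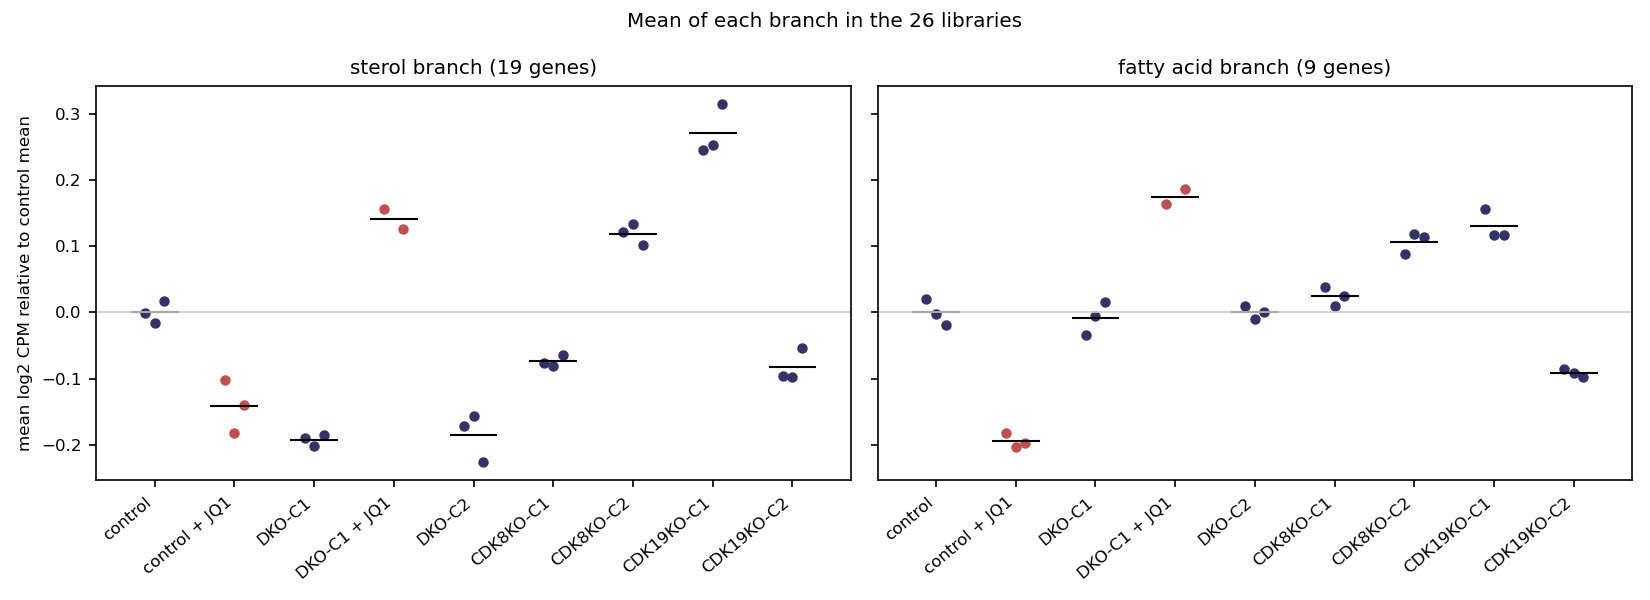
Mean log2 CPM relative to the control mean (y axis) of the 19 sterol and the 9 fatty acid enzymes in each of the 26 libraries; points are libraries, red with JQ1, and lines are group means. With TMM factors the sterol mean is -0.14 in control with JQ1, -0.19 in DKO-C1, 0.14 in DKO-C1 with JQ1 and 0.27 in CDK19KO-C1.

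Averaged over genes, the sterol branch was at -0.14 ± 0.0400 (mean log2 CPM relative to control, SD, n = 3) in control with JQ1, -0.19 ± 0.00886 (n = 3) in DKO-C1 and 0.14 ± 0.0214 (n = 2) in DKO-C1 with JQ1. The fatty acid branch was at -0.19 ± 0.0112, -0.01 ± 0.0251 and 0.17 ± 0.0163. SQLE and TM7SF2 carried much of the sterol value in DKO-C1: without them, a choice made after seeing the data, the other 17 sterol enzymes were at -0.22, -0.07 and 0.20. With TMM factors, untreated DKO-C1 lay below the control libraries in the sterol mean and overlapped them in the fatty acid mean, and treated DKO-C1 lay above them in both; with ERCC factors the median gene of treated DKO-C1 was at -0.53 (sterol) and -0.62 (fatty acid) against treated control. The 34 members took 0.622% ± 0.00778 of gene counts in control, 0.510% ± 0.00422 in control with JQ1, 0.553% ± 0.0107 in DKO-C1 and 0.650% ± 0.00777 in DKO-C1 with JQ1. Per exon length, SCD (274 CPM per kb), FASN (167) and ACLY (83.0) were the most abundant members in control.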

How the data were processed

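RNA from 26 HCT116 libraries was measured as paired reads. The deposited values are raw gene counts; the submitters' processing notes name STAR 2.5.2, featureCounts from Subread 1.6.3 and the build hg38. The sources used here do not give the strand setting, annotation release or library kit. Of 26 count columns, 22 matched 1 sample each by name and 4 a group only: 3 DKO columns were taken as DKO-C2 by elimination (replicates a to c), and 1 is a treated DKO-C1 library (replicate a).

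All 26 libraries entered one fit in edgeR 4.0.16 (R 4.3.3), a robust quasi-likelihood model of 9 groups with TMM factors, after filterByExpr (minimum count 10, minimum total 15). Tests are two-sided, p-values were adjusted by Benjamini-Hochberg over all 17198 genes, and calls are at under 0.05. The response difference is the interaction term. Each SE was derived from the test, as the absolute log2 fold change over the square root of the quasi-likelihood F statistic. Chi-square over degrees of freedom was 1.41 to 13.2 in the 25 within-group library pairs, so no pair matched within counting noise. Scripts were tested on simulated data. Values in every library are given for members called in the difference at 0.5 or more and for the 4 regulators. Of each list of other lipid genes at most 3 are named, those with the lowest p, and a gene that this rule names is not reported here. The members and lists were chosen with earlier results of these data known. Alternatives were DESeq2 (1.42.0) and its size factors, limma voom (3.58.1), ERCC factors, other filters, a replicate block, only the libraries compared, and each library left out. Gene positions and overlaps are from GENCODE (hg38), and promoters from RefSeq (GRCh38.p14).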

Additional observations from a re-analysis of the deposited data

Results flagged for a closer look

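The JQ1 responses of control and DKO-C1 differed, by the interaction test in edgeR, for 22 members. On the log2 scale (DKO-C1 minus control) the differences were 0.76 for ACAT2, 0.79 for HMGCS1, 0.42 for MVK, 0.92 for MVD, 0.80 for IDI1, 0.31 for FDPS, 0.68 for FDFT1, 0.28 for SQLE, 0.22 for LSS, 0.81 for MSMO1, 0.37 for NSDHL, 0.45 for HSD17B7, 0.68 for SC5D and 0.77 for DHCR7. They were 0.43 for INSIG1, 0.41 for SREBF2, 0.40 for ACLY, 0.42 for ACACA, 0.60 for FASN, 0.70 for SCD, 0.36 for FADS1 and 0.84 for ELOVL6. Among the other lipid genes named, the differences were 0.39 for ERG28, 0.40 for LIPA, 0.63 for TMEM97, 0.66 for ACACB, 0.40 for MID1IP1, -0.69 for HACD1, 0.51 for GPAM and -0.42 for PCYT1A. The treated DKO-C1 group has 2 libraries of 1 line, so line and genotype cannot be told apart.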

How the results depend on the processing

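The count of members called in the response difference was 22 with DESeq2, its size factors, limma voom or no filter, 23 with a minimum mean of 5 CPM and 20 with only the libraries compared. The shares of all genes called with DESeq2, its size factors, limma voom and the other filters are not given here. A similar count of members therefore does not show that they stood apart from all genes equally in each setting. ERCC factors left 8 members and 137 genes in the difference, 8 members in JQ1 in DKO-C1, and 34 members in DKO-C1, DKO, CDK8KO and CDK19KO against control, where 14976 genes were called in DKO-C1, 13863 in DKO-C1 under JQ1, 16258 in CDK8KO and 16849 in CDK19KO. The median of all genes then moved in JQ1 in control to -0.39, in JQ1 in DKO-C1 to -0.27 and in the difference to 0.12. With ERCC factors signs turned for IDI1 (-0.18), LSS (-0.14), LBR (-0.16), INSIG1 (-0.070) and ACSS2 (-0.010) in control on JQ1, FADS1 (-0.12) in DKO-C1 on JQ1, ACAT2 (-0.56), INSIG1 (-0.68), NPC1 (-0.50) and ELOVL5 (-0.57) in DKO-C1, INSIG1 (-0.15), MVD (-0.11) and SC5D (-0.12) in DKO-C1 under JQ1, ACAT2 (-0.48), INSIG1 (-0.60), NPC1 (-0.44) and ELOVL5 (-0.43) in DKO, SREBF1 (-0.73), INSIG1 (-0.82) and ACAT2 (-0.75) in CDK8KO, and SREBF1 (-1.13), INSIG1 (-1.26), STARD4 (-1.15), LSS (-1.18) and FDFT1 (-1.35) in CDK19KO. The cause was not tested. Leaving out each library in turn gave 918 to 1439 genes and 17 to 22 members in the difference, with 918 and 17 without DKO-C1 JQ1 replicate 1. The replicate numbers did not pair the libraries of the 7 groups checked (63 correlations of same-numbered deviations, -0.063 to 0.075, none over 0.1). Treated DKO-C1 and DKO-C2 were not in that check. A replicate block was fitted over the 22 numbered libraries, which left out DKO-C2 and 1 of 2 treated DKO-C1 libraries. The lone one is assumed to vary like the others, so the calls of that fit are not given. The change of libraries is also not separated from the block. Among 28 members with little sequence shared with other genes, a split chosen after seeing the data, 60.7% were called in the difference. Of all genes, 3.86% were called higher and 4.69% lower there with TMM factors. The cutoff on shared sequence is not given here. Counts of CYP51A1 were the lowest per length of the members, and the treated DKO-C1 group has 2 libraries.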
